A study of Mus musculus with 32 samples.

Results

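The 10 genes described here encode laminin chains and their partners in basement membranes: the laminin α chains *Lama2*, *Lama4* and *Lama5*, the β chains *Lamb1* and *Lamb2*, the γ chain *Lamc1*, the nidogens *Nid1* and *Nid2*, and the heparan sulfate proteoglycans perlecan (*Hspg2*) and agrin (*Agrn*). They were chosen by symbol, with no measured value in the rule, and all 10 were found among the 32544 genes of the count table and passed the filter on low counts in every comparison. Bulk RNA-Seq had been performed on kidney cortex from 32 mice of 25 weeks carrying *Col4a3*tm1Dec, a null allele of the collagen IV α3 chain, on the C57BL/6J background. There were 8 groups of 4 mice, which combined sex (male or female), genotype (control, *Col4a3*+/-, or Alport, *Col4a3*-/-) and treatment (vehicle, a purified diet alone, or the same diet mixed with nicotinamide riboside, NR, a precursor of NAD+). The control mice were heterozygous, so every mouse of the study carried the null allele, and the loss was germline and not limited to a cell type. Samples were single mice and not pools.

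A basement membrane is built from a laminin network and a type IV collagen network, which nidogens and heparan sulfate proteoglycans connect. Laminins are trimers of an α, a β and a γ chain that are bound by integrins and dystroglycan on cells. The mature glomerular basement membrane, the filter between podocytes and capillary endothelium, holds laminin of the α5, β2 and γ1 chains and agrin, whereas perlecan is typical of mesangial, vascular and tubular basement membranes, the β1 chain of immature and tubular ones, the α4 chain of vessels and the α2 chain of mesangium and muscle. In Alport syndrome the collagen IV network of α3, α4 and α5 chains is missing from the glomerular filter, and accumulation of laminin α2 there is a known feature of the disease.

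Levels are given as CPM (reads of a gene relative to the library total, with TMM scaling factors), and a fold change is log2 from an edgeR quasi-likelihood fit of the 8 mice compared, with its SE and a Benjamini-Hochberg adjusted p over all genes tested (threshold 0.05). Total counts were 16621944 to 27778797 per mouse with a median of 22071395, and a single gene of the 10 had 83 to 13142 counts in a mouse. *Col4a3* mRNA was lower in Alport than in control mice on vehicle, at 54.6 to 83.7 against 150.5 to 200.1 CPM in males and 57.6 to 79.3 against 139.7 to 163 CPM in females, so that none of these 16 libraries contradicted its genotype label. Among marker lists, all 10 proximal tubule markers fell in vehicle-treated Alport mice of both sexes, and 11 of 12 fibroblast, pericyte and muscle markers rose in both. Podocyte markers rose for 9 of 10 in males and 8 of 10 in females, endothelial markers for 9 and 6 of 10 and immune markers for 10 and 8 of 10, distal nephron and medulla markers fell for 5 and 4 of 9, and adipocyte markers summed to at most 8.20 CPM in any mouse. In NR-treated male Alport mice, replicate 1 stood apart from the other 3: its fibroblast markers summed to 2182 CPM against 544 to 780 CPM and its immune markers to 718 against 127 to 278 CPM, and 9 of the 10 basement membrane genes were highest there, so calls and fold changes of this group are also given without that mouse. In bulk tissue, a change in the number of cells of a type and a change in RNA per cell cannot be told apart.

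Promoter windows from RefSeq (GRCm38.p6, 250 bases before to 50 bases after a transcript start) were found for 7 of the 10 genes, with 2 windows for *Agrn*, and were not found for *Lama4*, *Lamc1* and *Nid2*. They are shown for *Nid1* and *Hspg2*, which had the largest and the third largest rise in male Alport mice, and for *Lamb1*, which had the smallest rise. The window of *Lama2*, which had the second largest rise, is described below but not shown. Each window is printed 5′ to 3′ on the strand of the gene, and capitals mark the GC box GGGCGG or its reverse complement CCGCCC. The *Nid1* window lies at chr13:13437352-13437651 on the plus strand, the *Hspg2* window at chr4:137468553-137468852 on the plus strand and the *Lamb1* window at chr12:31265043-31265342 on the plus strand.
Nid1: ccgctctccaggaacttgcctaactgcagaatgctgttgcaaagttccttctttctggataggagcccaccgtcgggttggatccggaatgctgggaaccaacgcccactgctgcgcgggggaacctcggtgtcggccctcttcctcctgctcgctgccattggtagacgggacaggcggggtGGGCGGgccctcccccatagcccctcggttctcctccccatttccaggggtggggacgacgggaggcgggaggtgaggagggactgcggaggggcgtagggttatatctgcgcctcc
Hspg2: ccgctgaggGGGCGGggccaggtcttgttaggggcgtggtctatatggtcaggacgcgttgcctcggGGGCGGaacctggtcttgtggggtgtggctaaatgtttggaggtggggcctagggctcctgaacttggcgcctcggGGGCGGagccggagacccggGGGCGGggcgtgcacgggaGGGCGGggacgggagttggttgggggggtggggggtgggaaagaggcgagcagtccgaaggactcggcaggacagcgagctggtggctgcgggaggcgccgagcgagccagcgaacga
Lamb1: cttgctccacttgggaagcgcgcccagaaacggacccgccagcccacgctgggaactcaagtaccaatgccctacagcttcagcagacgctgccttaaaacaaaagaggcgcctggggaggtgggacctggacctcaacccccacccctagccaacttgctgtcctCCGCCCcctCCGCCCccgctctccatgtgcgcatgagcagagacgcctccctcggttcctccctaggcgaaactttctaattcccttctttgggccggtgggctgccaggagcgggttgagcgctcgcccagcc
The *Hspg2* window held 5 GC box matches, the *Lamb1* window 2 and the *Nid1* window 1. The *Lama2* window held 1, with a GC content of 50.3%. A GC box was found in 7 of the 8 windows, all but that of *Lamb2*, and in 35.7% of 32851 windows of this length in the genome. No window of the 8 held the AP-1 site TGANTCA (7.81% of all windows), the palindrome GTCTAGAC bound by SMAD proteins (0.213%) or the TATA box TATAAA (13.6%), each searched on both strands. GC content was 44.0% in the *Lamb2* window and 83.3% in the upstream *Agrn* window, the lowest and highest of the 8, with a median of 52.7% over all windows. These matches describe letters and not bound sites.

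Vehicle-treated Alport mice were compared with vehicle-treated control mice of the same sex to ask how the disease genotype changed these 10 genes. Laminin chains outside the 10 did not all rise and are given below with other genes of the basement membrane. All 10 genes rose in both sexes, where 26.8% of all 15286 genes tested were called higher in males and 23.9% of 15709 in females. The median rise of the 10 was 1.09 on the log2 scale in males (−0.0013 over all genes) and 0.73 in females (−0.00083 over all genes), with adjusted p between 5.03e-07 and 0.00192 in males and between 5.93e-05 and 0.00711 in females. In males, the 4 Alport mice lay above the 4 controls for 10 of 10 genes (22.3% of all genes), and in females for 9 of 10 (20.7%), *Lama5* being the exception. The calls for all 10 held in both sexes when any single mouse was left out, while in 1 fit of all 32 mice *Lama5* and *Nid2* in females did not pass (adjusted p = 0.135 and 0.110). Over the same mice, summed podocyte markers were 824 to 1254 CPM in male Alport against 429 to 498 CPM in male control mice, fibroblast, pericyte and muscle markers 1103 to 1818 against 204 to 219 CPM, and proximal tubule markers 5981 to 9691 against 16203 to 18430.0 CPM; in females the same sums were 925 to 1061 against 625 to 683 CPM, 951 to 1462 against 271 to 352 CPM and 5921 to 9533 against 14152 to 16181 CPM. The part of these markers in the rise of the 10 genes was not tested. The plot of CPM by mouse shows all 8 groups.

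**Figure D1:**
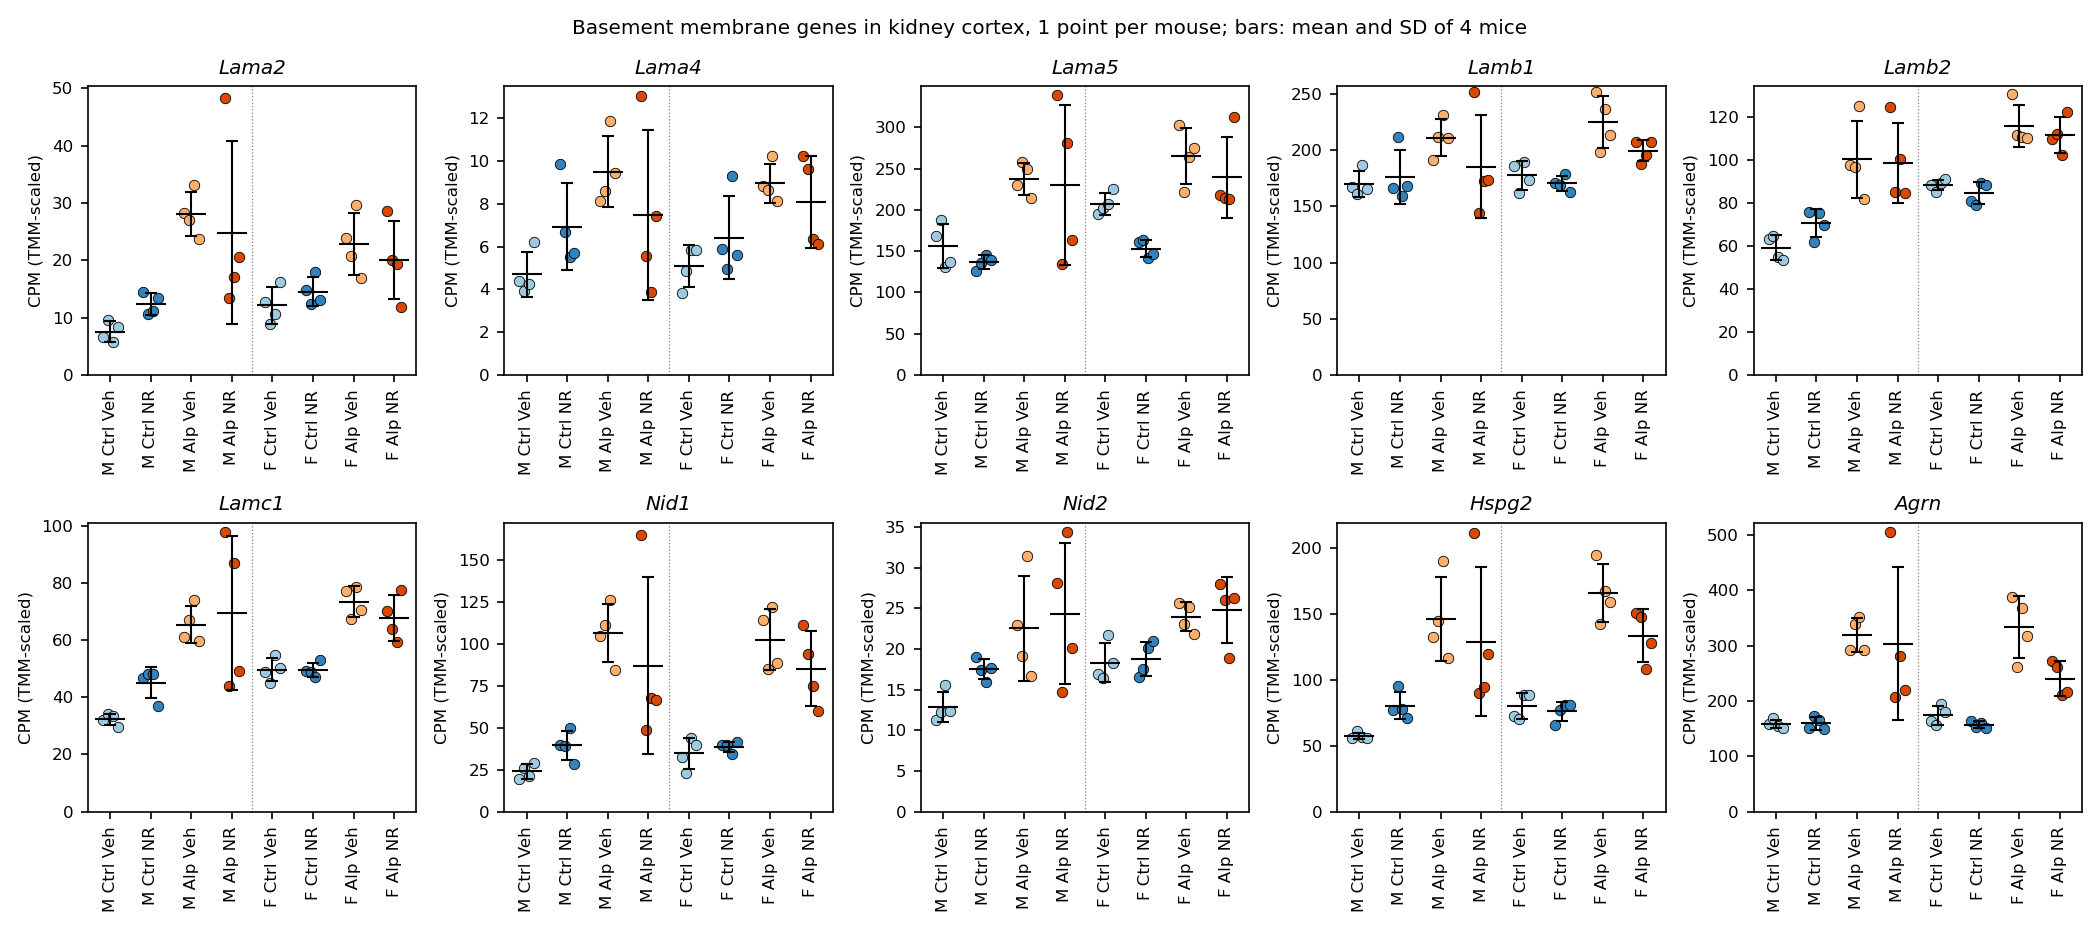
CPM (TMM-scaled, y axis from 0) of the 10 genes in each mouse, with 1 panel per gene and the 8 groups on the x axis (M, male; F, female; Ctrl, control; Alp, Alport; Veh, vehicle; NR, nicotinamide riboside); points are mice and bars are the mean and SD of 4 mice. Vehicle-treated Alport mice lay above vehicle-treated controls of the same sex in every panel, apart from an overlap for *Lama5* in females. The NR-treated male Alport group spread most, with *Nid1* at 48.7 to 165 CPM.

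*Lama2*, the α chain of laminin in muscle and mesangium, lies on chromosome 10 (GRCm38 chr10:26980036-27619758, minus strand). Its level was 6.57, 9.64, 5.70 and 8.42 CPM in the 4 vehicle-treated male controls and 28.3, 27.1, 33.2 and 23.8 CPM in the 4 vehicle-treated male Alport mice. In females it was 12.8, 8.84, 10.7 and 16.3 CPM in controls and 24.0, 20.7, 29.6 and 16.9 CPM in Alport mice. The male groups were far apart, while the lowest female Alport mouse was only just above the highest female control. *Lama2* rose by 1.97 ± 0.16 (SE, n = 4 per group) on the log2 scale in males (adjusted p = 9.01e-07) against by 0.95 ± 0.21 in females (adjusted p = 0.00467).

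*Lama5*, the α chain of the mature glomerular filter (GRCm38 chr2:180176373-180225859, minus strand), was the most abundant α chain per length. Its level was 168, 187, 131 and 137 CPM in male controls and 229, 257, 249 and 214 CPM in male Alport mice on vehicle. In female controls it was 194, 202, 207 and 226 CPM and in female Alport mice 302, 221, 264 and 274 CPM, so that the female groups overlapped by 1 mouse on each side. The rise was 0.69 ± 0.12 in males (adjusted p = 2.95e-04) against 0.39 ± 0.10 in females (adjusted p = 0.00711). *Lama4*, the α chain of vascular laminin (GRCm38 chr10:38965515-39110188, plus strand), was low, from 4.70 ± 1.04 to 9.49 ± 1.66 CPM in males and from 5.09 ± 0.96 to 8.96 ± 0.91 CPM in females (mean ± SD, n = 4), and rose by 1.09 ± 0.18 in males (adjusted p = 2.36e-04) against 0.85 ± 0.16 in females (adjusted p = 0.00119).

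The β chains are the partners of the α and γ chains in the trimer. *Lamb1* (GRCm38 chr12:31265234-31329644, plus strand), found in immature and tubular laminins, was 167, 161, 187 and 165 CPM in male controls and 191, 211, 231 and 211 CPM in male Alport mice on vehicle. The lowest Alport mouse was just above the highest control, and the rise of 0.39 ± 0.09 (adjusted p = 0.00192) was the smallest of the 10 genes in males. In females *Lamb1* rose by 0.38 ± 0.09 (adjusted p = 0.00549). *Lamb2*, the β chain of the mature filter (GRCm38 chr9:108479736-108490530, plus strand), rose by 0.84 ± 0.12 in males (adjusted p = 8.86e-05), from 59.2 ± 5.80 to 100.4 ± 17.9 CPM (mean ± SD, n = 4). In females it rose by 0.43 ± 0.07 (adjusted p = 6.20e-04), from 88.5 ± 2.44 to 116 ± 9.91 CPM.

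*Lamc1*, the γ chain shared by most laminins (GRCm38 chr1:153218922-153332786, minus strand), had little spread within groups. It was 32.0, 34.0, 33.3 and 29.7 CPM in male controls and 61.2, 66.9, 74.2 and 59.5 CPM in male Alport mice on vehicle. In females it was 49.0, 44.9, 54.7 and 50.1 CPM in controls and 77.2, 67.4, 78.6 and 70.7 CPM in Alport mice. Both pairs of groups were separate, and female controls were all above male controls. The rise was 1.10 ± 0.09 in males (adjusted p = 5.03e-07) against 0.60 ± 0.08 in females (adjusted p = 1.71e-04).

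*Nid1*, the nidogen that bridges laminin γ1 and type IV collagen (GRCm38 chr13:13437551-13512269, plus strand), had the largest rise of the 10 genes in both sexes. Its level was 19.1, 26.2, 21.2 and 29.2 CPM in male controls and 104, 111, 126 and 84.0 CPM in male Alport mice on vehicle. In females it was 32.4, 23.0, 43.8 and 39.4 CPM in controls and 114, 85.1, 122 and 88.7 CPM in Alport mice. No Alport mouse on vehicle came near a control mouse of its sex. *Nid1* rose by 2.23 ± 0.15 in males (4.70-fold, adjusted p = 6.36e-07) and by 1.60 ± 0.21 in females (3.03-fold, adjusted p = 3.41e-04). *Nid2*, the second nidogen (GRCm38 chr14:19751265-19811787, plus strand), rose by 0.89 ± 0.19 in males (adjusted p = 0.00189) against 0.42 ± 0.10 in females (adjusted p = 0.00607), from 12.8 ± 1.89 to 22.5 ± 6.44 CPM and from 18.3 ± 2.39 to 23.9 ± 1.79 CPM. In the annotation, 8.45% of the exon bases of *Nid2* are shared with *Rtraf* on the other strand, 2.06% of those of *Nid1* with *Gm48682* and 3.86% of those of *Lama2* with *Gm48084*, and as the strand setting of the counting was not stated, reads in those bases cannot be assigned to a strand.

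The proteoglycans rose about as much as the α4 and γ1 chains or more. *Hspg2*, which encodes perlecan (GRCm38 chr4:137468769-137570630, plus strand), was 55.7, 61.2, 56.2 and 56.0 CPM in male controls and 132, 145, 190.2 and 116 CPM in male Alport mice on vehicle. In females it was 72.8, 70.5, 88.5 and 88.7 CPM in controls and 195, 142, 167 and 159 CPM in Alport mice, again without overlap. The rise was 1.43 ± 0.13 in males (adjusted p = 3.19e-06) against 1.09 ± 0.11 in females (adjusted p = 5.93e-05). *Agrn*, the proteoglycan of the glomerular filter (GRCm38 chr4:156165290-156197488, minus strand), was 159, 169, 155 and 151 CPM in male controls and 292, 339, 351 and 293 CPM in male Alport mice on vehicle. In females it was 164, 156, 195 and 179 CPM in controls and 388, 261, 368 and 318 CPM in Alport mice. The groups of both sexes were separate, with rises of 1.09 ± 0.09 in males (adjusted p = 8.61e-07) against 0.98 ± 0.12 in females (adjusted p = 1.61e-04).

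**Figure D2:**
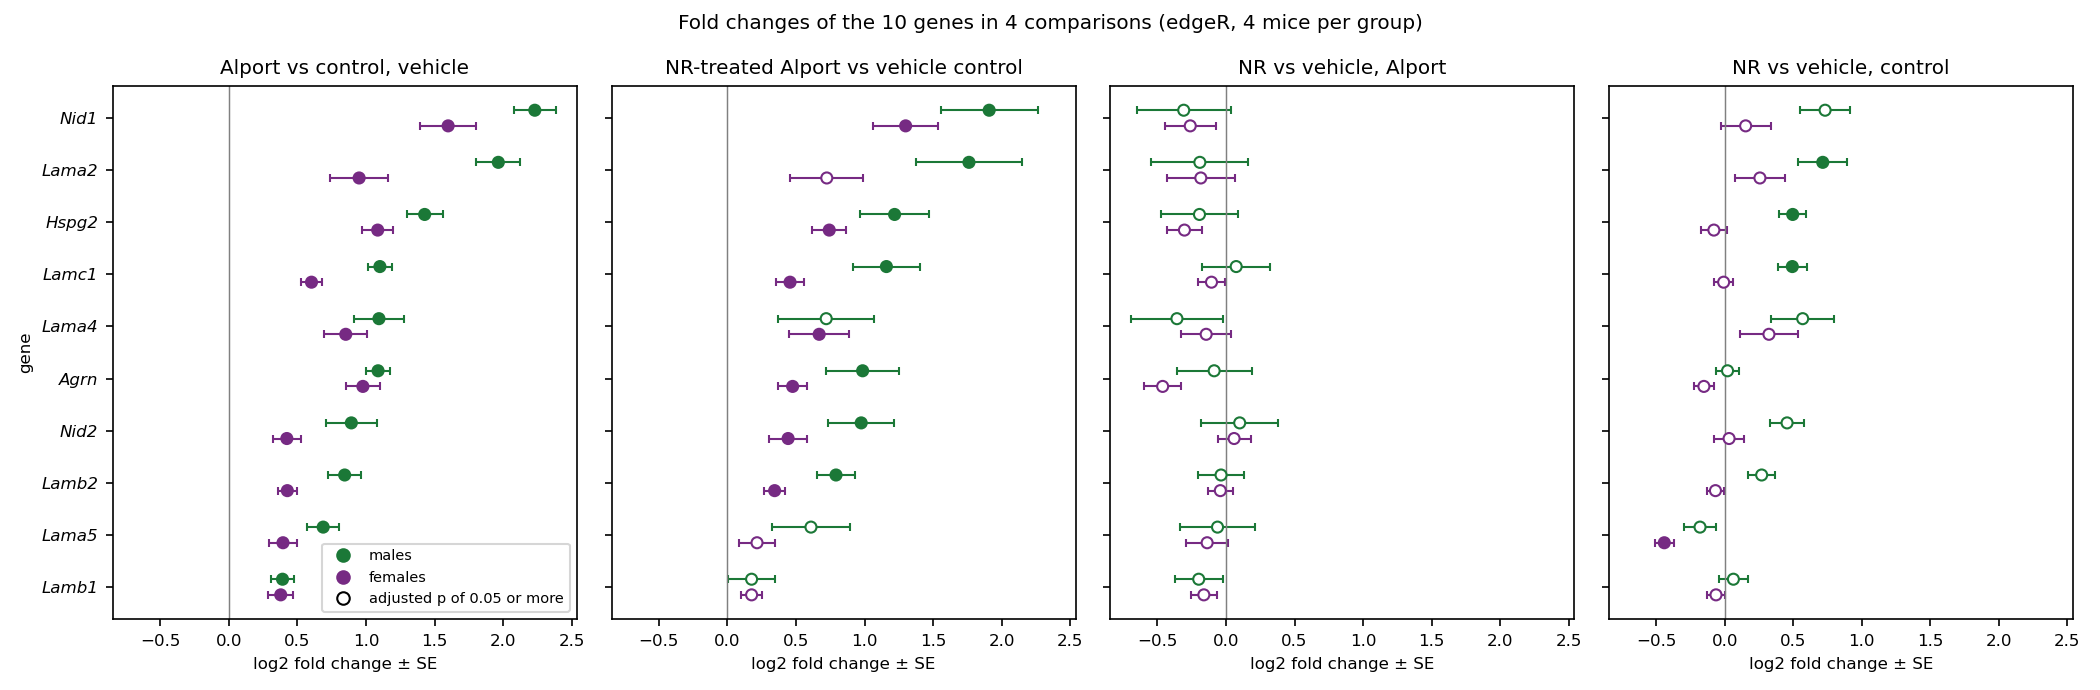
Log2 fold change ± SE (x axis) of the 10 genes (y axis, ordered by the male Alport effect) in 4 comparisons, with males in green and females in purple; filled points have an adjusted p below 0.05. All points are filled for Alport against control on vehicle, none for NR against vehicle in Alport mice, and those for NR-treated Alport mice lie right of 0 in both sexes.

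The rise in female Alport mice was next set against that in males, in the 16 vehicle-treated mice. All 10 genes had the smaller log2 rise in females, where 60.9% of all 16152 genes tested had the lower value in females. With the limit of adjusted p and 2-fold used for the interaction, 0 of the 10 genes were called (41 genes in all, 0.254%), while 5 of the 10 had an unadjusted p below 0.05 (11.8% of all genes) and DESeq2 called *Lama2*. By adjusted p alone, *Lamc1* passed, with a rise smaller by 0.53 ± 0.11 (female minus male, −0.53, adjusted p = 0.0412; 0.495% of all genes pass without the fold limit). That call was lost in most alternatives: *Lamc1* passed in 6 of 22 fits, this one included, with adjusted p of 0.0149 to 0.889, and did not pass with RLE size factors, in 1 fit of all 32 mice or without any 1 of 14 of the 16 mice, while the value stayed between −0.58 and −0.45. The largest difference was that of *Lama2*, −1.05 ± 0.28, with an adjusted p of 0.127.

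The sexes were also compared at the control level. On vehicle, all 10 genes had a higher mean in female than in male controls, and 6 of 10 were called higher (15.7% of all genes): *Lama2*, *Lama5*, *Lamb2*, *Lamc1*, *Nid2* and *Hspg2*. In 1 fit of all 32 mice only *Lamb2* and *Lamc1* were called, and *Lama2* passed in 9 of 14 fits. For 5 of these, all but *Lama2*, the 4 females lay above the 4 males (14.4% of all genes). *Lamc1* differed by 0.65 ± 0.08 (adjusted p = 4.89e-05) and *Lamb2* by 0.60 ± 0.07 (adjusted p = 5.40e-05), whereas *Lamb1* and *Lama4* differed by 0.09 ± 0.07 and 0.14 ± 0.19 with adjusted p of 0.395 and 0.622. In vehicle-treated Alport mice the order of the sexes by mean was not uniform, as *Lama2*, *Lama4* and *Nid1* were higher in males and the other 7 in females, a difference between means that was not tested. In the same controls 8 of 10 podocyte, 8 of 12 fibroblast, pericyte and muscle, 5 of 10 endothelial and 3 of 9 distal nephron and medulla markers were called higher in females. Their sums were 625 to 683 CPM in females against 429 to 498 CPM in males for podocyte markers, 271 to 352 against 204 to 219 CPM for fibroblast, pericyte and muscle markers, 516 to 667 against 457 to 510 CPM for endothelial markers and 6310 to 7206 against 4970 to 5999 CPM for distal nephron and medulla markers. Of 10 proximal tubule markers, 4 were called lower and 1 higher in females. They summed to 14152 to 16181 CPM in females against 16203 to 18430 CPM in males. Of 8 immune markers tested, 0 were called. The part of these markers in the sex difference was not tested.

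NR-treated Alport mice were compared with vehicle-treated Alport mice to ask whether the treatment changed these genes in disease. With edgeR, 0 of the 10 genes passed in either sex. In males 0 of all 15500 genes passed (0.0%; 777 genes or 5.01% with an unadjusted p below 0.05, none of the 10 among them), and in females 72 of 15712 (0.458%; 2 of the 10 with an unadjusted p below 0.05, beside 16.5% of all genes). The fold change was below 0 with NR for 8 of 10 genes in males (median −0.14, 0.01 over all genes) and for 9 of 10 in females (median −0.15, 0.00049 over all genes). *Agrn* in females was 272, 262, 212 and 216 CPM with NR, against 388, 261, 368 and 318 CPM on vehicle. The difference of −0.46 ± 0.14 had an adjusted p of 0.169 with edgeR, and the groups overlapped through the lowest vehicle-treated mouse. DESeq2 called *Agrn*, 1 of the 10, in females (adjusted p = 0.0351). No gene of the marker lists was called with edgeR in either sex. Summed immune markers in females were 69.7 to 453 CPM with NR against 300 to 531 CPM on vehicle. For fibroblast, pericyte and muscle markers the sums were 510 to 1242 against 951 to 1462 CPM. Endothelial markers went the other way, at 800 to 944 against 638 to 725 CPM. The part of these markers in the values was not tested.

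In males, the values of some of the 10 genes with NR turned on a single mouse. *Nid1* was 165, 48.7, 67.3 and 66.4 CPM in the 4 NR-treated male Alport mice and *Agrn* 505, 207, 281 and 220 CPM. Replicate 1 was above every vehicle-treated male Alport mouse for both genes, and the other 3 were below every vehicle-treated mouse for both. The same held for *Lama2*, *Lama4* and *Lamb1*. *Lama5* (339, 135, 281 and 164 CPM) and *Lamc1* (97.8, 43.9, 86.9 and 49.3 CPM) instead had 2 mice above and 2 below every vehicle-treated mouse. The coefficient of variation had a median of 43.0% over the 10 genes in this group, against 7.45% to 15.6% in the other groups. With all 4 mice *Nid1* differed by −0.31 ± 0.34 (adjusted p = 0.95). Without replicate 1 it fell by 0.82 on the log2 scale (adjusted p = 0.0466), and 9 of the 10 genes were lower with a median of −0.41. *Nid1* was then the 1 gene of the 10 that passed (1.84% of all genes called lower without that mouse). It passed in only this 1 of 14 fits. Replicate 1 was singled out partly because these genes were highest there, so lower values without it are not independent evidence of a fall. The fibroblast and immune markers of replicate 1 were the highest of the group, as given above. Its proximal tubule markers summed to 4889 CPM, between 3956 CPM in replicate 3 and 12561 CPM in replicate 2. The part of these markers in the values was not tested.

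NR-treated Alport mice were also compared with vehicle-treated controls. These comparisons share their control mice with those on vehicle, and the NR-treated Alport mice with the comparison above. With all mice, the 10 genes had a higher value in NR-treated Alport mice of both sexes, and 7 of 10 were called in males (14.4% of all genes called higher) and 7 of 10 in females (11.5%), where 4 of 10 were called in 1 fit of all 32 mice. Without replicate 1, 6 of 10 were called in males (11.2%), the median fell from 0.98 to 0.75 and *Lamb1* had a value of −0.026. Groups were separate for 6 of 10 in males (14.9%) and 6 of 10 in females (11.5%). *Nid1* was higher by 1.91 ± 0.35 in males (adjusted p = 0.00792) against 1.30 ± 0.24 in females (adjusted p = 0.00537), beside 2.23 and 1.60 on vehicle, and by 1.38 in males without replicate 1 (adjusted p = 0.00146). *Hspg2* was higher by 1.22 ± 0.25 and 0.74 ± 0.12 (adjusted p = 0.0111 and 0.00238), and by 0.85 in males without replicate 1 (adjusted p = 0.00188). *Lama5* and *Lamb1* did not pass in either sex (values 0.61 and 0.18 in males, 0.22 and 0.18 in females), nor did *Lama4* in males (0.72, adjusted p = 0.165) and *Lama2* in females (0.72, adjusted p = 0.0792). Without replicate 1 the male values were 0.34 for *Lama5*, −0.026 for *Lamb1* and 0.29 for *Lama4*, again not past the threshold. In the same comparisons 9 of 10 podocyte markers were called higher in males and 7 of 10 in females, endothelial markers for 8 and 7 of 10, fibroblast, pericyte and muscle markers for 8 of 12 in each sex and immune markers for 6 of 9 and 2 of 10, while proximal tubule markers were called lower for 2 and 10 of 10 and distal nephron and medulla markers for 1 of 9 in each. Summed podocyte markers were 807 to 968 CPM in NR-treated Alport males and 978 to 1163 CPM in females, and the part of these markers in the result was not tested.

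In control mice, NR was compared with vehicle to ask what the treatment does without Alport disease. In males, 3 of 10 genes were called higher (2.97% of all 14696 genes): *Lama2* by 0.72 ± 0.18 (adjusted p = 0.0463), *Lamc1* by 0.49 ± 0.11 (adjusted p = 0.0308) and *Hspg2* by 0.50 ± 0.10 (adjusted p = 0.0225). *Lama2* was 14.5, 10.6, 11.1 and 13.4 CPM with NR, and *Hspg2* 77.0, 94.9, 78.1 and 70.7 CPM. Each of these mice was above all 4 vehicle-treated male controls, as also for *Lamc1* and *Nid2*, 4 of 10 genes in all (7.37% of all genes). *Nid1* and *Nid2*, higher by 0.73 ± 0.18 and 0.46 ± 0.12, did not pass (adjusted p = 0.0540 and 0.0584), and *Lamb1*, *Agrn* and *Lama5* had values of 0.06 ± 0.10, 0.02 ± 0.08 and −0.18 ± 0.12. The 3 calls were unstable: 0 to 5 genes were called with 1 mouse left out, 0 without vehicle-treated replicate 1, 2 or 4 or NR-treated replicate 3, 1 without NR-treated replicate 1, 5 without NR-treated replicate 4, and 0 in 1 fit of all 32 mice. Over all genes, 86 to 141 were called higher in the fits with 1 mouse left out and 0 calls. The counts were 166 of 14955 without NR-treated replicate 1 and 1116 of 14775 without NR-treated replicate 4. In the same mice 8 of 10 endothelial markers and 5 of 12 fibroblast, pericyte and muscle markers rose with NR (summed endothelial markers 665 to 911 against 457 to 510 CPM). Of 10 proximal tubule markers 1 fell and 0 rose, as for 9 distal nephron and medulla markers. Summed proximal tubule markers were 11235 to 16399 CPM with NR against 16203 to 18430 CPM on vehicle. Of 10 podocyte and 8 immune markers, 0 passed. The part of these markers in the result was not tested.

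In female controls *Lama5* fell with NR, in bulk cortex that does not separate glomeruli from tubules. It was 161, 163, 142 and 146 CPM with NR against 194, 202, 207 and 226 CPM on vehicle, and all 4 treated mice were below all 4 others (6.32% of all genes). It fell by 0.44 on the log2 scale (SE 0.07, adjusted p = 0.00369) and was the 1 of 10 genes called (2.39% of all 14951 genes called lower), with each mouse left out in turn as well, though not in 1 fit of all 32 mice. In male controls *Lama5* differed by −0.18 ± 0.12 (adjusted p = 0.384), and whether the sexes differ in this response was not tested. For the other 9 genes in females, values ranged from −0.15 ± 0.07 for *Agrn* to 0.32 ± 0.21 for *Lama4*, with adjusted p of 0.249 and 0.387. Of 10 podocyte, 10 endothelial and 9 immune markers, 0 passed in this comparison. Summed podocyte markers were 571 to 638 CPM with NR and 625 to 683 CPM on vehicle. Of 12 fibroblast, pericyte and muscle markers 1 fell and 0 rose. Of 10 proximal tubule markers 1 rose and 1 fell, as for 9 distal nephron and medulla markers. The part of these markers in the result was not tested.

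Levels were then set per kilobase of merged exon (GENCODE M21, GRCm38) to compare genes with each other. In vehicle-treated male controls *Lamb1* and *Agrn* were highest, at 17.2 ± 1.15 and 17.1 ± 0.84 CPM per kb, followed by *Lama5* at 13.7 ± 2.33 and *Lamb2* at 9.73 ± 0.95 CPM per kb. The remaining laminin γ1, perlecan and nidogen genes were between 2.48 CPM per kb (*Nid2*) and 4.00 CPM per kb (*Hspg2*), and *Lama2* and *Lama4* were lowest at 0.46 ± 0.11 and 0.39 ± 0.09 CPM per kb. In vehicle-treated male Alport mice *Agrn* was highest at 34.3 ± 3.31 CPM per kb, and *Nid1* at 15.3 ± 2.49 was near *Lamb2* at 16.5 ± 2.95 CPM per kb. Of all laminin α chain transcripts per kb, including *Lama1* and *Lama3*, *Lama5* made up 60.8% ± 2.06 in male controls and 71.1% ± 1.20 in male Alport mice on vehicle, with ranges of 58.8% to 63.3% and 69.9% to 72.2% that did not meet. *Lama3*, an α chain of epithelial laminin, made up 21.9% ± 1.31 and 12.0% ± 1.75 in the same mice. In females *Lama5* was at 78.1% ± 1.74 in controls and 79.3% ± 2.82 in Alport mice, ranges that overlapped. *Lama2* rose from 2.06% ± 0.37 to 5.87% ± 0.71 of α chains in males and was at 3.18% ± 0.71 and 4.77% ± 1.05 in females. These shares were not tested, and a merged exon length overstates the length of a gene with several isoforms.

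**Figure D3:**
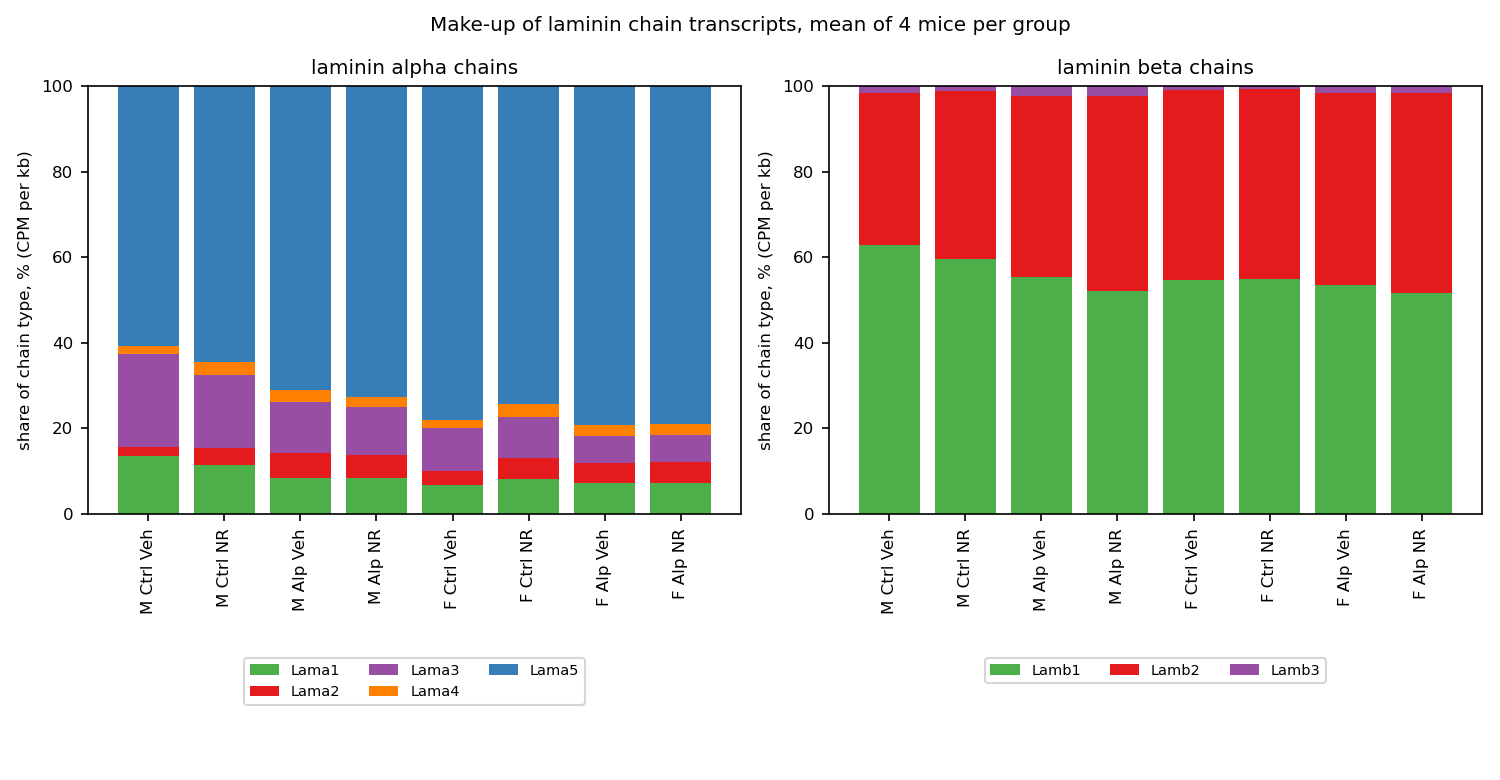
Share (%, y axis) of each gene in the laminin α and β chain transcripts, as CPM per kb of merged exon, stacked to 100 for the 8 groups on the x axis; bars are means of 4 mice and carry no error. *Lama5* fills most of each α bar, 60.8% in vehicle-treated male controls and 79.3% in vehicle-treated female Alport mice, and *Lamb1* averages between 51.5% and 62.8% of β chains.

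Ratios of subunits were taken within each library. Of 32 comparisons of 4 ratios, each an exact two-sided permutation test of 4 against 4 mice with a smallest possible p of 0.0286, 9 reached that value and 0 had an adjusted p below 0.05. The log2 ratio of *Nid1* over *Nid2* was 0.88 ± 0.35 in male controls and 2.26 ± 0.23 in male Alport mice on vehicle (difference 1.38), and 0.88 ± 0.28 and 2.08 ± 0.17 in females (difference 1.19), all 4 Alport mice of each sex lying above the controls (exact permutation p = 0.0286, adjusted p = 0.102 each). *Lama2* over *Lama5* differed by 1.28 between male Alport and control mice on vehicle, and by 0.90 and 0.72 between NR-treated and vehicle-treated male and female controls, with the same exact p in each, whereas in female Alport mice on vehicle it differed by 0.56 (exact permutation p = 0.0857). *Lamb1* over *Lamb2* differed by −0.44 in male (exact permutation p = 0.0571) and −0.05 in female Alport mice on vehicle (exact permutation p = 0.657). *Lama4* over *Lama5* differed by 0.47 in female and 0.39 in male Alport mice on vehicle (exact permutation p = 0.0286 and 0.2). With NR it differed by 0.74 in female and 0.71 in male controls (exact permutation p = 0.0286 and 0.0857). In female controls with NR, *Lama2* itself did not pass (0.26 ± 0.18, edgeR adjusted p = 0.441), while *Lama5* fell. With 9 of 32 comparisons at the smallest possible p, even fully separate groups had an adjusted p of 0.102, so no ratio could pass here. The lack of calls therefore does not show that ratios were unchanged. The separate ranges of *Nid1* over *Nid2* and *Lama2* over *Lama5* describe these mice only.

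**Figure D4:**
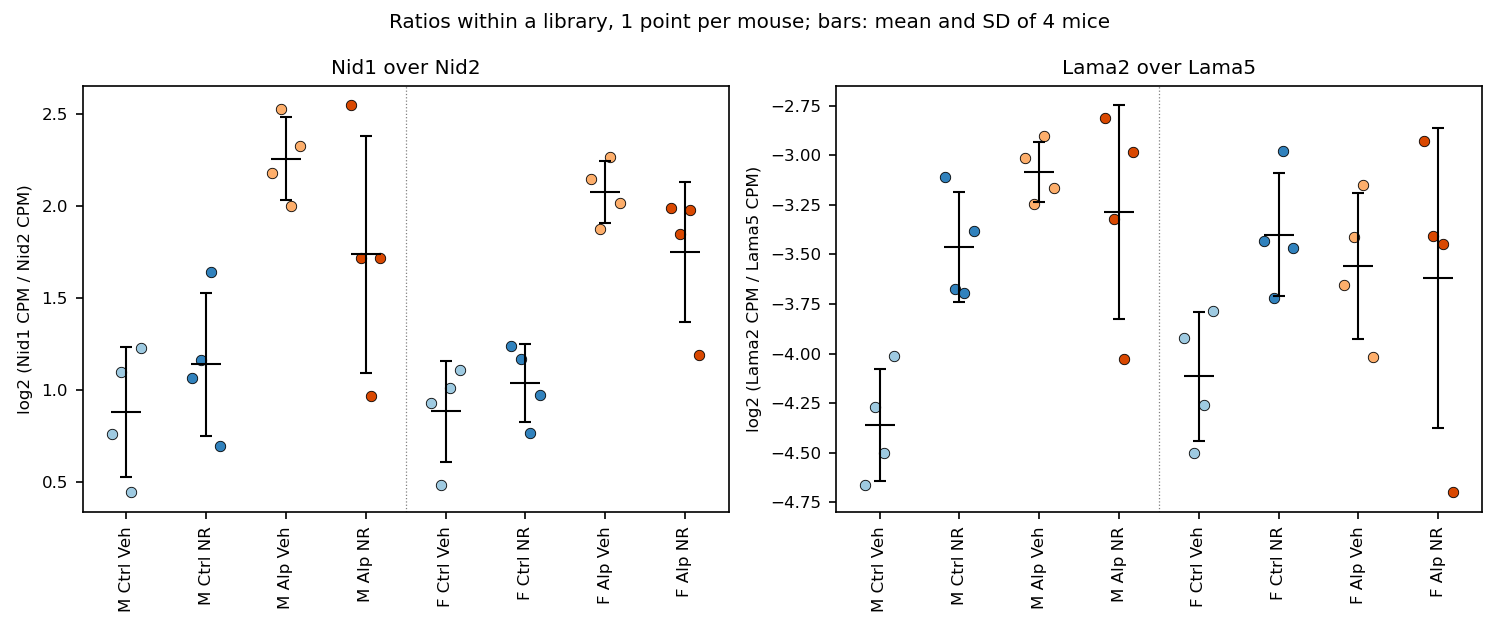
Log2 ratio of CPM (prior count 2) within a library (y axis) for *Nid1* over *Nid2* and *Lama2* over *Lama5* in the 8 groups; points are mice, bars the mean and SD of 4 mice. For *Nid1* over *Nid2*, vehicle-treated Alport mice averaged 2.26 in males and 2.08 in females and controls on vehicle 0.88 in both sexes; for *Lama2* over *Lama5*, NR-treated controls lie above vehicle-treated ones.

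Other genes of the basement membrane were taken from lists. All genes tested were called lower for 24.0% in males and 21.8% in females, beside the shares called higher given above. Of 16 receptors tested in males (18 in females), 13 rose and 1 fell in vehicle-treated Alport males, and 15 rose and 1 fell in females (medians 0.69 and 0.57). *Itga2*, an integrin chain that binds collagen and laminin, rose by 3.07 and 2.57 in males and females (adjusted p = 1.36e-05 and 1.70e-04) from low levels of 0.28 and 0.47 CPM. *Bcam*, a receptor for laminin α5, rose by 1.33 in males (adjusted p = 1.88e-05), and *Lrp4*, the agrin receptor of the neuromuscular junction, fell by 0.54 and 0.74 (adjusted p = 2.50e-04 and 5.10e-04). Of 7 genes of the type IV collagen network, 5 rose in each sex (medians 1.72 and 1.36), led by *Col4a6* at 2.31 in males and *Col4a1* at 1.88 in females, while *Col4a3* and *Col4a4* fell, *Col4a4* by 0.37 and 0.24. Other laminin chains and the laminin-related netrins were mixed: *Lamb3*, a β chain of epithelial laminin, rose in both sexes (1.06 in males, 1.26 in females), *Lamc3* rose by 0.94 and *Ntn4* fell by 0.46 in males, and *Ntn1* and *Lama3* fell by 0.41 and 0.34 in females. In males *Ntn1* and *Lama3* had values of −0.36 and −0.43 that did not pass (adjusted p = 0.0613 and 0.0646). The sex-genotype interaction called 0 of these 6 genes. In all, 2 of 6 rose and 1 fell in males, and 1 of 6 rose and 2 fell in females (medians −0.30 and 0.085). Of 27 other basement membrane matrix genes, 18 rose and 3 fell in males and 17 rose and 4 fell in females (medians 1.38 and 1.01), and of 25 genes of heparan sulfate synthesis and editing 8 rose in each sex and 3 fell in males and 2 in females (medians 0.14 and 0.17), with rises of 2.63 and 1.78 for the sulfatase *Sulf1* and of 2.34 in both sexes for heparanase, *Hpse*. The initiating xylosyltransferase *Xylt1* fell by 0.80 in males and 0.79 in females.

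With NR, fewer list genes passed, and every one that did is named here. In Alport mice 0 list genes passed in males, and in females *Col17a1*, a hemidesmosomal collagen, fell by 2.41 on the log2 scale (adjusted p = 0.0474; 0.0764% of all genes called lower), from 5.66 to 1.07 CPM. In male controls, 6 of 26 matrix genes rose with NR, where 2.97% of all genes were called higher. *Smoc2* rose by 2.59 and *Matn2* by 1.20 (adjusted p = 0.00342 for both). *Ecm1* rose by 1.39, *Fbln1* by 1.17, *Egflam* by 1.05 and *Sparc* by 0.80 (adjusted p of 0.0175 to 0.0460). The matrix gene *Vwa1* fell by 0.88 (adjusted p = 0.00227) and *Col4a4* by 0.81 (adjusted p = 0.0260), where 1.48% of all genes were called lower. The receptors *Bcam*, *Sgce* and *Utrn* rose by 0.63, 0.81 and 0.46 (adjusted p of 0.0281 to 0.0388). In female controls *Col4a3* and *Col4a4*, chains of the mature glomerular network, fell by 0.38 and 0.32 with NR (adjusted p = 0.0115 and 0.0142). In male controls *Col4a3* had a value of −0.91 that did not pass (adjusted p = 0.101). Also lower in females were *Col7a1* by 1.07 (adjusted p = 0.0118), *Xylt1* by 0.38 (adjusted p = 0.0275) and *Extl1* by 0.52 (adjusted p = 0.0485). There, 2.39% of all genes were called lower. *Papln* rose by 0.47 in females (adjusted p = 0.0465, with 4.0% of all genes called higher).

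Across the 32 mice, log2 CPM of the 10 genes were positively correlated in all 45 pairs, with Pearson's r of 0.36 to 0.95 (median 0.78). After group means were subtracted, all 45 were still positive, with r of 0.02 to 0.84 (median 0.60). The mice share library, depth and tissue make-up within each value. The NR-treated male Alport group spread most, with a median coefficient of variation of 43.0% against 7.45% to 15.6% in the other groups. Its replicate 1 was highest of that group for 9 of the 10 genes. The r values were not taken without that mouse, nor set beside those of other gene pairs, so these are descriptions. Outside the 10 genes, *Lrp1* was most like *Nid1* (r = 0.98 over 32 mice, 0.93 after subtraction of group means), *Slc12a4* most like *Lamc1* (0.97 and 0.89), *Ehd2* most like *Hspg2* (0.97 and 0.87), *Fat1* most like *Agrn* (0.97 and 0.86) and *Notch1* most like *Lamb2* (0.96 and 0.85). The next genes for *Lamc1* were *Iqgap1*, *Map4*, *Golm1* and *Ahnak* (r of 0.95 to 0.97). The remaining nearest genes were *Arhgef1* for *Lama5* (0.95), *Olfml3* for *Lama2* (0.95), *Zfp652* for *Nid2* (0.92), *Cck* for *Lama4* (0.90) and *Man2a2* for *Lamb1* (0.87).

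Group order by mean was similar for most genes. Vehicle-treated Alport mice of either sex had the highest mean for 9 of the 10, with males highest for *Lama2*, *Lama4* and *Nid1* and females for *Lama5*, *Lamb1*, *Lamb2*, *Lamc1*, *Hspg2* and *Agrn*, and *Nid2* was highest in NR-treated female Alport mice. Vehicle-treated male controls were lowest for 8 of the 10, *Lama5* being lowest in NR-treated male and *Agrn* in NR-treated female controls. Neighbouring groups in this order overlapped for nearly all genes. Where the order passed from the Alport to the control groups, the neighbouring groups did not share values for *Nid1*, *Agrn* and *Lamc1*, and they overlapped for the other 7. Over all groups, only *Agrn* had every Alport mouse (207 CPM or more) above every control (195 CPM or less). The lowest NR-treated male Alport mouse had 48.7 CPM of *Nid1*, below 49.96 CPM in an NR-treated male control. For *Lamc1* it had 43.9 CPM, below 54.7 CPM in a vehicle-treated female control.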

How the data were processed

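Total RNA of kidney cortex was isolated on spin columns and sequenced after poly(A) selection (NEBNext Ultra II kit). The authors aligned and processed the reads with BioJupies and deposited a table of whole-number counts per gene symbol and mouse, from which all values here start. The build mm10 is given in the submitters' processing notes, and the aligner version, annotation and strand setting are not given in the sources used here. The second deposited table holds log10 values, equal to log10(CPM + 1) from the count table to within 8.88e-16, and was not used further.

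The sample groups were taken from the GEO labels. Each comparison was 1 fit of its 8 mice (16 for the sex-genotype interaction) in edgeR 4.0.16 under R 4.3.3, with the filterByExpr minimum count of 10, TMM scaling, robust quasi-likelihood F tests and Benjamini-Hochberg adjustment over all genes tested. The interaction also needed a 2-fold change. The fits were tested on simulated data. Ratios were differences of log2 CPM with prior count 2, tested with exact permutation tests (scipy 1.17.1). Alternatives were DESeq2 1.42.0, RLE size factors, no low-count filter, 1 fit of all 32 mice, a replicate block, a prior count of 0.5 and leaving out each mouse in turn. Exon lengths and coordinates came from GENCODE M21 (GRCm38, the same build as mm10) and promoter windows from RefSeq.

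The genes, lists and tests were chosen with earlier results of these data known. Named in the text were the 10 genes, the genes of the lists that were past the threshold with NR, the nearest genes by Pearson's r, and, from the 2 genes of each list with the largest change in each direction in Alport mice, those given. Within groups, the counts of all 48 pairs of mice differed beyond sampling noise (the lowest ratio of chi-square to degrees of freedom was 7.96), and the mice were treated as separate samples. The precision of a value is set by the 4 mice of a group, as the lowest count of a gene of the 10 in a mouse was 83. A single item is left out and not reported here.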

Additional observations from a re-analysis of the deposited data

Results flagged for a closer look

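Within groups of 4 mice, a value was singled out where its gap to the nearest other mouse exceeded Dixon's 95% critical value for the share of the range of the group, which chance gives in about 1 of 20 groups. Of 80 groups (10 genes, 8 groups each), 4 held such a value. *Lama5* was 312 CPM in replicate 4 of the NR-treated female Alport mice and 213 to 218 CPM in the other 3. *Lamb2* was 131 CPM in replicate 1 of the vehicle-treated female Alport mice against 110.3 to 112 CPM. *Lamc1* was 36.9 CPM in replicate 4 of the NR-treated male controls against 46.8 to 48.3 CPM. Without that mouse 5 of the 10 genes were called higher with NR in male controls, beside 1116 of all 14775 genes. With it, 3 of the 10 and 437 of all 14696 genes were called higher. *Hspg2* was 61.2 CPM in replicate 2 of the vehicle-treated male controls against 55.7 to 56.2 CPM.

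In the interaction test, the Alport effect on *Lamc1* was 1.10 in males and 0.60 in females, a difference of −0.53 on the log2 scale (females minus males, adjusted p = 0.0412 with edgeR, without the 2-fold limit). It passed in 6 of 22 fits, this one included, with adjusted p up to 0.889 in 1 fit of all 32 mice, and so is not a stable call.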

How the results depend on the processing

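All 10 genes were called higher in vehicle-treated Alport males under every alternative run (DESeq2, RLE size factors, no low-count filter, 1 fit of all 32 mice, the replicate block and each mouse left out). In females the same held, except that 8 of the 10 were called in 1 fit of all 32 mice, without *Lama5* and *Nid2*. Leaving out 1 mouse in turn gave 6872 to 7959 genes called in males and 6026 to 7621 in females there. The cause of the changes below was not tested.

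In Alport mice with NR, all genes called were 62 with DESeq2, 77 in 1 fit of all 32 mice and 0 to 374 with 1 mouse left out in males (374 without NR-treated replicate 1), with 0 to 1 of the 10 called. In females they were 728 with DESeq2, 240 in 1 fit and 9 to 163 with 1 mouse left out, with 1 of the 10 called by DESeq2. In male controls with NR, 5 of the 10 were called by DESeq2, 0 in 1 fit and 0 to 5 with 1 mouse left out, of 1641 genes with DESeq2, 413 with the replicate block and 111 to 1863 with 1 mouse left out. In female controls with NR, 0 of the 10 were called in 1 fit, of 1493 genes with DESeq2, 406 with the replicate block, 20 in 1 fit and 422 to 857 with 1 mouse left out.

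For NR-treated Alport mice against vehicle-treated controls, 6818 genes were called in males in 1 fit and 1423 to 3952 with 1 mouse left out, with 5 to 8 of the 10 called. In females 4 of the 10 were called in 1 fit and 5 to 8 with 1 mouse left out, of 2313 genes with the replicate block and 2227 to 4788 with 1 mouse left out. Between female and male controls on vehicle, 2 of the 10 were called in 1 fit, of 2795 genes, and 5 to 7 with 1 mouse left out. For the sex-genotype interaction, 1 of the 10 was called by DESeq2 and 1 with no fold limit, of 114 genes with DESeq2, 80 with no fold limit, 4 in 1 fit and 16 to 58 with 1 mouse left out.

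Some single log2 values changed sign, and the cause was not tested. *Lamc1* with NR in Alport males was −0.0019 with the replicate block, *Lamc1* with NR in female controls 0.0025 in 1 fit, and the interaction of *Lamb1* 0.036 in 1 fit. With 1 mouse left out, ranges in Alport males with NR were −0.73 to 0.0096 for *Lama2*, −0.31 to 0.12 for *Lama5*, −0.16 to 0.086 for *Lamb2*, −0.13 to 0.24 for *Lamc1*, −0.12 to 0.30 for *Nid2* and −0.44 to 0.054 for *Agrn*. They were −0.039 to 0.11 for *Lamb1* and −0.022 to 0.062 for *Agrn* in male controls with NR, −0.026 to 0.27 for *Lamb1* in NR-treated Alport males against controls, −0.094 to 0.015 for *Lamb2* in Alport females with NR, −0.054 to 0.046 for *Lamc1*, −0.0025 to 0.29 for *Nid1* and −0.023 to 0.13 for *Nid2* in female controls with NR, and −0.094 to 0.022 for the interaction of *Lamb1*.

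Same-numbered mice did not deviate together (32 pairs, r of −0.17 to 0.26, 5 over 0.1, in 0 comparisons every pair), so the replicate block, in which 2 of the 10 were called in male controls with NR, is an alternative only. With 1 mouse left out, the exact test of a ratio cannot reach 0.05.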
